A study of Mus musculus with 45 samples.

Results

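The genes of 4 secreted chemokines that attract monocytes, Ccl2, Ccl7, Ccl8 and Ccl12, and of Ccr2, a receptor by which monocytes follow such signals, were described in 3 cell types of mouse lung: inflammatory monocytes (iMo), macrophages of the interstitium (IM) and macrophages of the alveoli (AM). The 5 genes were found by symbol among the 23594 rows of a table of TPM (transcript abundance scaled by gene length and library), and all 5 were among the 8937 genes that passed a filter on low values. Lungs of C57BL/6J mice gave the cells by flow sorting, either 2, 6 and 20h after intraperitoneal (ip) LPS or with no LPS (0h), and their messenger RNA was sequenced from low input. Strain and tissue were shared by all groups, and the labels give neither the dose of LPS, nor an age, nor a genotype other than the strain. Each iMo and each IM group had 2 libraries, while AM had 2 after 2h, 3 after 6h and 2 after 20h of LPS and 4 with none. Another 18 libraries, taken after intranasal LPS, were not used, because the row names did not match their values (Pearson r of log2(TPM + 1) with the other libraries 0.01 to 0.025, against 0.757 to 0.989 among the 27 libraries used).

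In mouse, CCL2, CCL7, CCL8 and CCL12 are small secreted proteins of the monocyte chemoattractant family. CCL2, CCL7 and CCL12 act through CCR2, a receptor coupled to G proteins, while mouse CCL8 acts mainly through CCR8. LPS is a bacterial product sensed through TLR4, and CCR2 signalling draws Ly6C-high monocytes out of bone marrow and into inflamed tissue. Alveolar macrophages live in the airspace and interstitial macrophages in the tissue around it.

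The 4 ligand genes lie in 1 cluster of 81229 bases on the plus strand of mouse chromosome 11 (GENCODE M21, GRCm38, the assembly called mm10). Ccl2 (ENSMUSG00000035385.5) lies at chr11:82035571-82037453, Ccl7 (ENSMUSG00000035373.2) at chr11:82045712-82047525, Ccl12 (ENSMUSG00000035352.3) at chr11:82101845-82103400 and Ccl8 (ENSMUSG00000009185.2) at chr11:82115185-82116799. Ccr2 (ENSMUSG00000049103.14) lies at chr9:124101950-124113557, also on the plus strand. The annotated gene Gm17268, on the minus strand at chr11:82028224-82038562, covers the whole of Ccl2 and has no row of its own in the table. The strand setting of the counting is not given in the sources used here, so reads of these overlapping genes cannot be told apart.

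RefSeq promoter sequence (GRCm38.p6, 250 bases before to 50 after the gene's start) was at hand for Ccl8, Ccl12 and Ccr2. The windows are shown because Ccl12 and Ccl8 are neighbours, of which Ccl12 rose in iMo and Ccl8 fell in IM, and because Ccr2 encodes the receptor of CCL12. Capitals mark matches to 1 of 8 motifs, searched on both strands. The windows are chr11:82114935-82115234, chr11:82101595-82101894 and chr9:124101933-124102232, all on the plus strand. The windows of Ccl8 and Ccl12 are set on the starts given above. That of Ccr2 is set on a RefSeq start 233 bases downstream of the GENCODE start, so that 283 of its 300 bases lie inside the gene as GENCODE gives it.
Ccl8: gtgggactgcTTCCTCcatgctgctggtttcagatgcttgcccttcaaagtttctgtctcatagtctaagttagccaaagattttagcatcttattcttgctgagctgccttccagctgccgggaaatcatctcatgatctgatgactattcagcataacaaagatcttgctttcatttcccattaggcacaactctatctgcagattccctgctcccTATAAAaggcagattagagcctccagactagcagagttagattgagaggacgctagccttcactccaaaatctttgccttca
Ccl12: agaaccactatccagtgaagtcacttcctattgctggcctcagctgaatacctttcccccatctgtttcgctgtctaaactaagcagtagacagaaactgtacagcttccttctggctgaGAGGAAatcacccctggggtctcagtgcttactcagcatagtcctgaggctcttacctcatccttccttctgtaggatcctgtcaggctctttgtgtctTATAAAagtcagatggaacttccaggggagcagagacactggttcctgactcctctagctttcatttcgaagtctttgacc
Ccr2: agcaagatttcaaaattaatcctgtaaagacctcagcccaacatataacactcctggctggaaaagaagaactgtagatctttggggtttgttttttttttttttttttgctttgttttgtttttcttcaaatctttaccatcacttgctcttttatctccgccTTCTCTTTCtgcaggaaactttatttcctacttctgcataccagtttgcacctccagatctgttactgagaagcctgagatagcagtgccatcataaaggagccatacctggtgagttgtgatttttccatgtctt

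Ccl8 and Ccl12 each held 1 TATA match (TATAAA), which begins 32 bases before the start of Ccl8 and 31 bases before that of Ccl12. A TATA match was found in 13.6% of the 32851 RefSeq promoter windows. Each of them also held 1 match to the core of the PU.1 motif (GAGGAA), found in 28.3% of windows. The Ccr2 window held neither, and had 1 match to an interferon element (GAAANNGAA, 8.56% of windows), which is on the minus strand and downstream of the GENCODE start. None of the 3 windows matched the NF-kB consensus (8.46% of windows), AP-1 (TGANTCA, 7.81%), C/EBP (TTGCNNAA, 10.8%), STAT (TTCNNNGAA, 8.3%) or CCAAT (37.4%). A match is a description of the letters and not a site of binding.

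The title of each library ends in a code of 6 digits, after a letter in most, and the labels do not say what it stands for. Both 0h libraries of IM and of iMo and 3 of the 4 AM libraries of 0h have the code of A171227, and all ip libraries have that of A161219 or that of N160623 (this last code has no letter in the titles, and N stands for none). In IM and iMo, having had no LPS and having the code of A171227 can therefore not be told apart, except through the AM library N160623 of 0h. The labels do not say that replicates are separate animals, so p-values measure the spread between these libraries. Column sums ran from 331473 to 551635 TPM, and TPM keeps no read depth. Ppia, a gene used by every cell, was listed at 0 in 7 of the 27 libraries, so a gene is only ever said to be listed at 0 and not to be absent. In sorted pools, fewer cells of a type and less RNA per cell cannot be told apart.

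The labels were checked against 3 marker lists. The 15 alveolar macrophage markers summed to 4565 to 17335 TPM in AM libraries, 390.3 to 2191 in IM and 638.7 to 1114 in iMo. The 10 classical monocyte markers summed to 2512 to 12871 TPM in iMo libraries, 3236 to 9599 in IM and 41.31 to 424.8 in AM. The 15 interstitial macrophage markers summed to 519.2 to 2570 TPM in the IM libraries of ip, against 6676 and 8067 in those of 0h. IM libraries also held 11174 to 56841 TPM of the 10 neutrophil markers, of which the gene Camp was listed at 0 in both IM libraries of 0h. The interstitial macrophage markers were thus highest in IM at 0h, neutrophil markers outweighed them in every IM library, and after ip LPS monocyte markers did so too. One AM library, A161219 of 20h, held 4046 TPM of interstitial macrophage markers, against 186.2 to 451.7 in the other 10 AM libraries.

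**Figure D1:**
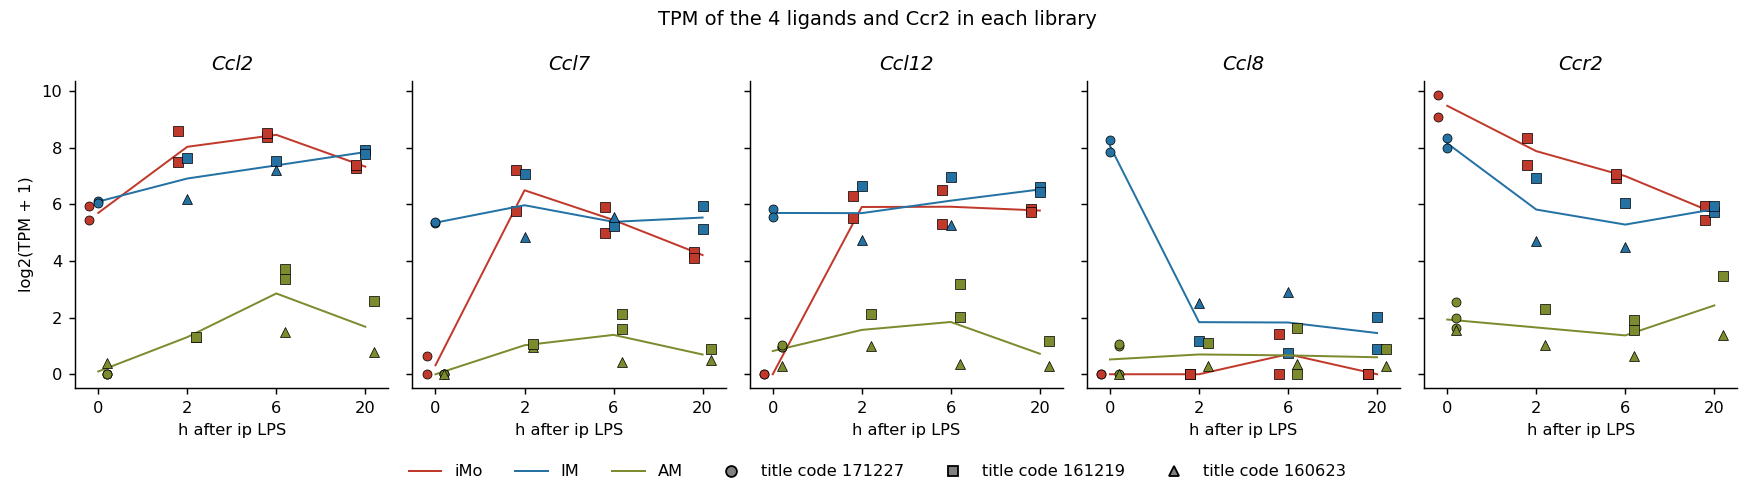
Level of each gene, as log2(TPM + 1), in every library at 0, 2, 6 and 20h after ip LPS; lines join group means, colours are cell types and symbols are title codes. Ccl7 and Ccl12 of iMo leave the floor at 2h, Ccl8 of IM drops to 0.663 to 6.58 TPM, and Ccr2 is lower in every ip library of iMo and IM than at 0h.

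Differences were tested with limma on log2(TPM + 1), with Benjamini-Hochberg adjustment over all 8937 genes in each comparison, and a gene was called where the adjusted p was under 0.05. Each log2 fold change is given with its SE and after subtracting the median fold over the genes tested, which lay at -0.43, -0.48 and -0.31 in iMo, at -0.80, -0.53 and -0.09 in IM and at -0.03, -0.16 and -0.31 in AM at 2, 6 and 20h against 0h. Tests and directions are those of the values without this subtraction. Of 45 pairs of gene and comparison of an ip time with 0h, 18 were called, against 19.1% of such pairs over all genes. At 2, 6 and 20h, 32.4, 29.1 and 22.2% of all genes were called in iMo, 48.7, 25.5 and 12.4% in IM, and 0.134, 1.30 and 0.112% in AM. Of the 5 genes, 3, 4 and 4 were called in iMo at these times, 2, 2 and 2 in IM and 0, 1 and 0 in AM. In IM at 2h the share called over all genes was thus higher than the share of the 5 genes.

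Ccl7, a ligand of CCR2 that also binds other receptors, had the highest fold at 2h in iMo of the ligands detected at 0h. It stood at 53.8 and 148 TPM at 2h, 30.8 and 58.9 at 6h and 16.2 and 18.9 at 20h, against 0 and 0.556 at 0h. The lowest ip library was thus far above both libraries of 0h. Its log2 fold change in iMo was 6.60 ± 0.56 at 2h (limma adjusted p = 3.61e-08), 5.61 ± 0.56 at 6h (1.23e-06) and 4.20 ± 0.56 at 20h (4.07e-05). Among all 8937 genes in iMo at 2h, 11 had a higher fold than Ccl7. The means fell off after 2h, but no later time differed from an earlier one by an adjusted p under 0.05 (0.279 for 6h against 2h and 0.227 for 20h against 6h).

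Ccl12, the mouse ligand of CCR2 that lies next to Ccl8, also rose in iMo. It was at 44.4 and 78.4 TPM in iMo at 2h, 38.9 and 90.6 at 6h and 52.5 and 55.7 at 20h, and was listed at 0 in both libraries of 0h. Unlike the means of Ccl7, those of Ccl12 stayed level, at 61.4, 64.7 and 54.1 TPM. The rise was called at each time (limma adjusted p = 1.35e-06, 2.71e-06 and 4.72e-06 at 2, 6 and 20h), and no fold is given against a group listed at 0.

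Ccl2, the ligand for which the family is named, was the one ligand above 1 TPM in iMo without LPS. It stood at 178 and 382 TPM in iMo at 2h, 336 and 365 at 6h and 154 and 167 at 20h, against 42.4 and 61.2 at 0h. All 6 ip libraries exceeded both libraries of 0h. The log2 fold change was 2.76 ± 0.58 at 2h (limma adjusted p = 0.00378), 3.24 ± 0.58 at 6h (0.00125) and 1.94 ± 0.58 at 20h (0.0472). With title code added to the model the folds were 0.93, 1.42 and 0.12, and none was called (adjusted p = 0.56, 0.38 and 0.976), and for Ccl2 in iMo LPS and title code cannot be told apart. In the same model the rises of Ccl7 and Ccl12 in iMo remained called at all 3 times. The code of the 0h libraries is joined to the others only through AM of 0h, however. All 3 genes were near the floor there, with Ccl7 listed at 0, Ccl12 at 0.235 to 1.065 TPM and Ccl2 at 0 to 0.312. For Ccl7 and Ccl12 in iMo, LPS and title code can therefore not be told apart either. The call of Ccl2 at 2h was also lost without iMo library B161219 (2.08, adjusted p = 0.0894). That at 20h was lost without any 1 of its own 4 libraries (adjusted p up to 0.237) and without any of 11 libraries of other groups (0.0509 to 0.0559).

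Ccl8 stayed at or near the floor in iMo. It was listed at 0 in 7 of the 8 iMo libraries and stood at 1.67 TPM in the other, a library of 6h.

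IM held all 4 ligands without LPS. Ccl8 stood at 1.23 and 4.75 TPM in IM at 2h, 0.663 and 6.58 at 6h and 0.868 and 3.03 at 20h, against 231 and 308 at 0h. The highest of the 6 ip libraries was thus far below both libraries of 0h. The log2 fold change in IM was -5.43 ± 0.64 at 2h (limma adjusted p = 2.34e-07), -5.70 ± 0.64 at 6h (4.87e-07) and -6.52 ± 0.64 at 20h (2.43e-07). Ccl8 ranked 8th, 9th and 6th from the lowest fold among 8937 genes at these times. It was called at each time in all 12 alternative fits and in all 27 fits that left out 1 library.

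Other genes moved with Ccl8 in IM. Over all 8937 genes, 3642, 1861 and 750 were called lower there at 2, 6 and 20h, and 714, 414 and 362 higher. Of the 15 interstitial macrophage markers, which do not hold Ccl8, 12, 11 and 7 fell at 2, 6 and 20h and none rose, with a median log2 fold change of -2.93, -2.94 and -2.16. Ccl8 had a lower fold than all 15 of them at 2h and 20h, and than all but 1 at 6h. Their sum was 519.2 and 1395 TPM in IM at 2h, 682.9 and 699.3 at 6h and 2399 and 2570 at 20h, against 6676 and 8067 at 0h. The marker sum was thus partly back at 20h, while Ccl8 stayed near its 2h level. The sum does not stand for each marker, as only 2 of the 15 were called higher at 20h than at 6h (median log2 fold change 0.2). In iMo the same sum also rose, from 350.3 and 388.6 TPM at 6h to 2132 and 1980 at 20h.

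Markers of other lung cells fell in IM at the same times, at which 3642, 1861 and 750 of all 8937 genes were called lower. The 9 endothelial markers summed to 9.231 to 42.43 TPM in IM after ip LPS and to 532.6 and 715.5 at 0h, and 9, 8 and 8 of them fell. The 8 lung epithelial markers summed to 17.72 to 59.02 TPM after ip LPS and to 347.7 and 704.6 at 0h, and 6 of them fell at each time. The 7 fibroblast markers summed to 1.111 to 7.834 TPM after ip LPS and to 331.0 and 364.0 at 0h. Of these lists, the endothelial and fibroblast ones held genes with a fold below that of Ccl8 (2 of 9 and 1 of 2 tested at 2h). Of the 10 neutrophil markers, 5 rose at each time, against 714, 414 and 362 of all 8937 genes, and 1 fell at 2h. The part of these cells, of the title code and of LPS in the loss of Ccl8 was not tested. With title code in the model the fall was still called at all 3 times. That model joins the code of the 0h libraries to the others only through AM of 0h, where Ccl8 was at 0 to 1.118 TPM. It can therefore not tell LPS and title code apart for Ccl8 in IM.

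**Figure D2:**
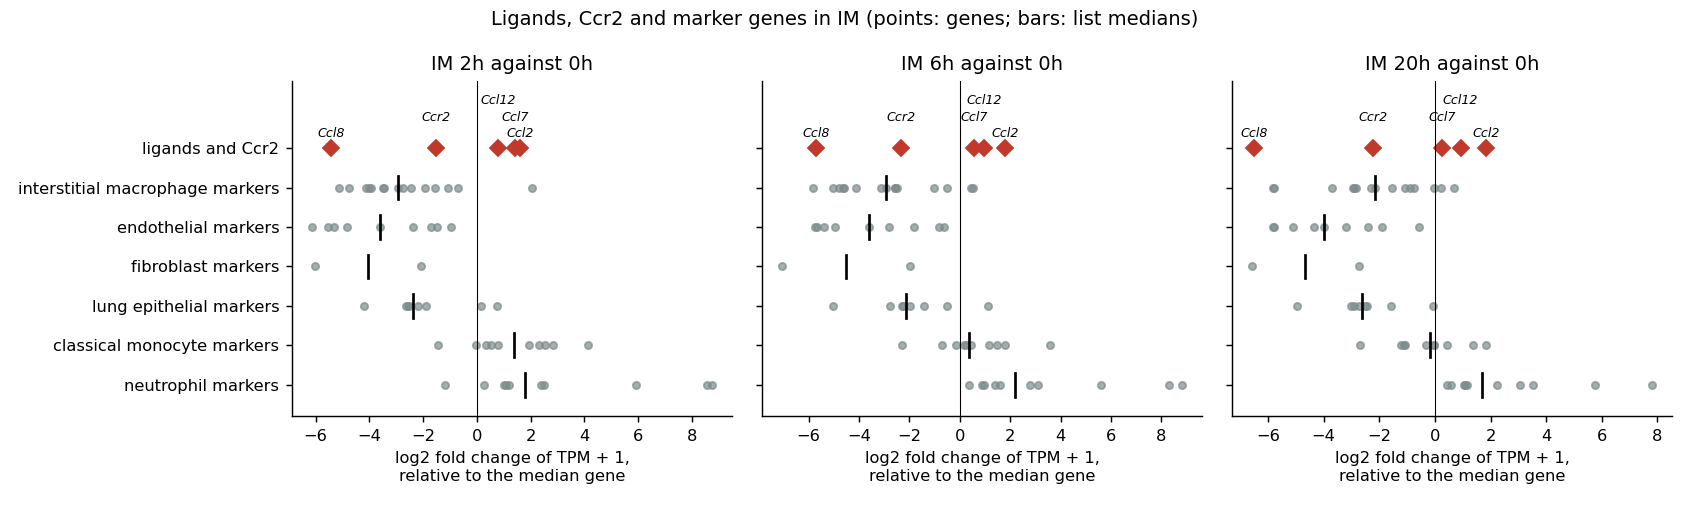
Log2 fold change of TPM + 1 in IM at 2, 6 and 20h against 0h, relative to the median gene, for the 4 ligands and Ccr2 (diamonds) and for the tested genes of 6 marker lists (points, with list medians as bars). Ccl8, at -5.43, -5.70 and -6.52, lies at the low end of the interstitial macrophage markers, while Ccl2, Ccl7 and Ccl12 lie above 0.

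The 3 other ligands in IM did not pass the test in the main fit. Ccl2 stood at 72.5 and 197 TPM in IM at 2h, 147 and 186 at 6h and 220 and 239 at 20h, against 65.9 and 69.3 at 0h. All 6 ip libraries were above both libraries of 0h, yet the adjusted p was 0.253, 0.108 and 0.0507, for log2 fold changes of 1.61, 1.81 and 1.84 ± 0.58. Before the median is subtracted, these folds were 0.82, 1.28 and 1.75. Ccl2 in IM at 20h lay near the threshold, and it was called in several alternative fits, array weights among them (adjusted p = 0.0053). At 6h it was called with a pseudocount of 10 TPM (1.41, adjusted p = 0.0247) and with quantile scaling (1.49, 0.0322). Without all N160623 libraries its folds at 2h and 6h were 2.03 and 1.80. With the replicate block the fold at 20h was -0.19, and with title code in the model no time was called. LPS and title code cannot be told apart for Ccl2 in IM.

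Ccl7 in IM stood at 28.1 and 134 TPM at 2h, 36.3 and 45.7 at 6h and 33.8 and 60.8 at 20h, against 39.3 and 40.6 at 0h. Its groups overlapped at every time, and the log2 fold changes were 1.41, 0.56 and 0.27 ± 0.56 (limma adjusted p = 0.375, 0.976 and 0.881). The lower 2h library is N160623, and without it Ccl7 was called at 2h (2.22, adjusted p = 0.0229). Ccl12 in IM stood at 25.5 and 99.8 TPM at 2h, 37.8 and 126 at 6h and 86.1 and 96.8 at 20h, against 46.4 and 55.9 at 0h. At 20h both libraries were above 0h, and the log2 fold change of 0.92 ± 0.69 had an adjusted p of 0.494 by limma. In both genes the low library at 2h was N160623, as was the low library of Ccl12 at 6h.

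Among AM, 1 of the 15 comparisons of an ip time with 0h was called. Ccl2 was at 1.79, 9.34 and 12.1 TPM in AM at 6h, against 0, 0, 0 and 0.312 at 0h, a log2 fold change of 2.91 ± 0.45 (limma adjusted p = 0.000813). All 3 libraries of 6h were above all 4 of 0h. Ccl2 was at 1.48 in both AM libraries of 2h and at 0.717 and 4.96 at 20h, which was not called (adjusted p = 1 and 0.384). With a pseudocount of 0.1 TPM both were called (3.51 and 4.18, adjusted p = 0.0165 and 0.0148), and with values rescaled without Rn45s and Lars2 that at 20h was (2.75, 0.035). Without library N160623 of 20h, the rise at 20h was called (2.93, adjusted p = 0.0253). Within the N160623 libraries alone, with 1 a time, Ccl2 of AM was at 0.312, 1.48, 1.79 and 0.717 TPM at 0, 2, 6 and 20h. With title code in the model the fold at 6h was 1.61 and not called (adjusted p = 0.379), and with a pseudocount of 10 TPM it was 0.85 (0.278).

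Markers of other cells moved with Ccl2 in AM at 6h, where 83 of all 8937 genes were called higher and 33 lower. The classical monocyte markers summed to 116.1, 251.5 and 424.8 TPM there, against 57.93 to 94.43 at 0h, and 5 of 10 rose and none fell. The neutrophil markers summed to 371.6 to 440.3 TPM in AM at 6h and to 20.32 to 80.34 at 0h, and 5 of 10 rose. The order of the 3 AM libraries by Ccl2 was the order by monocyte marker sum, and the reverse of the order by neutrophil marker sum. The part of either list in the rise of Ccl2 was not tested.

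The other ligands stayed low in AM. Ccl7 ran from 0.362 to 3.38 TPM in the 7 AM libraries of ip and was listed at 0 in all 4 of 0h. Ccl8 ran from 0 to 2.11 TPM after ip LPS and from 0 to 1.12 at 0h. Ccl12 ran from 0.216 to 8.10 TPM after ip LPS and from 0.235 to 1.06 at 0h. None of these changes was called at any time, by limma adjusted p of 0.146 to 1, and 2 of 9, both of Ccl7, had an unadjusted p under 0.05. Ccl7 at 6h, at 0.362, 2.02 and 3.38 TPM, was called in several alternative fits, among them that with array weights (0.000532) and that without its lowest library N160623 (0.042). Ccl12 at 6h was called with array weights (1.92, adjusted p = 0.00967).

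**Figure D3:**
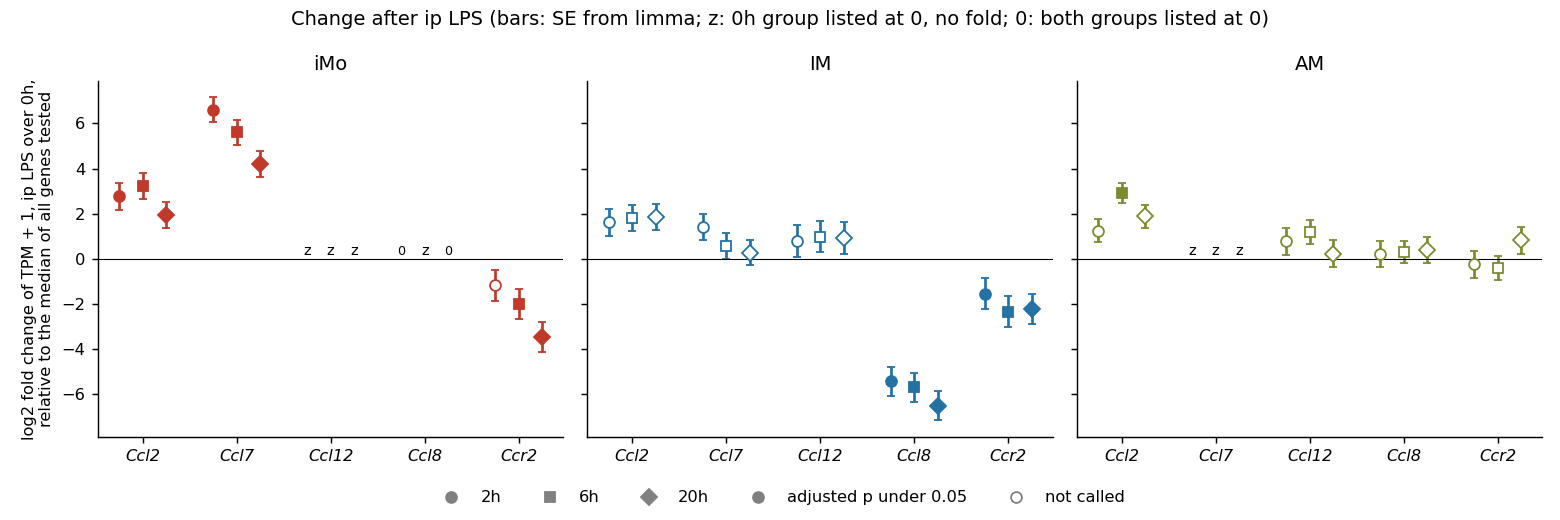
Log2 fold change of TPM + 1 with its SE for each gene at 2, 6 and 20h of ip LPS over 0h, after subtracting the median over genes; filled symbols have an adjusted p under 0.05, and z and 0 mark groups listed at 0. In iMo the folds of Ccl7 run from 4.20 to 6.60 and those of Ccr2 from -3.48 to -1.18, and in IM those of Ccl8 run from -6.52 to -5.43.

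Summed over the 4 ligands, iMo held 276.7 and 608.6 TPM at 2h, 459.2 and 463.1 at 6h and 228.4 and 235.6 at 20h, against 42.99 and 61.22 at 0h. IM held 130.8 and 432.1 TPM at 2h, 236.9 and 348.9 at 6h and 340.7 and 400.0 at 20h, against 383.4 and 472.5 at 0h. The sum of the ligands was thus higher after LPS in every iMo library, and in IM its range after LPS overlapped that of 0h. AM held 1.594 to 23.55 TPM after ip LPS and 0.547 to 2.183 at 0h. Sums of TPM weigh each gene per length.

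The make-up of that sum shifted in both cell types. In iMo at 0h, Ccl2 made up 99.5% of it, and at 2, 6 and 20h Ccl2 held 63.3, 76.1 and 69.1%, Ccl7 22.8, 9.73 and 7.57% and Ccl12 13.9, 14 and 23.3%. In IM, Ccl8 held 62.9% at 0h and 1.06, 1.24 and 0.526% at 2, 6 and 20h, while Ccl2 held 15.8% at 0h and 47.9, 56.9 and 62.0% later. After LPS the order by mean TPM was Ccl2 first in iMo and IM at all 3 times, and Ccl8 last.

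**Figure D4:**
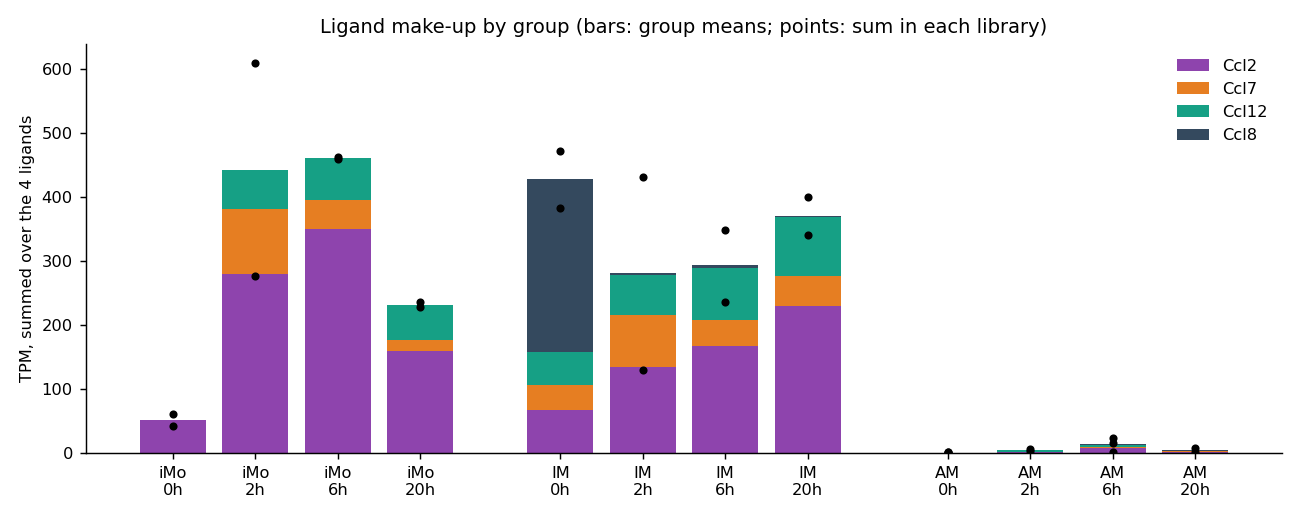
Mean TPM of the 4 ligands, stacked, in each cell type at 0, 2, 6 and 20h after ip LPS, with the summed TPM of each library as points. Ccl8 is the largest block in IM at 0h (62.9%) and is 1.24% or less in IM afterwards; AM bars stay at 23.55 TPM or below in every library.

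Ccr2, the receptor, went the other way from its ligands in iMo. It stood at 168 and 328 TPM in iMo at 2h, 121 and 133 at 6h and 42.5 and 60.6 at 20h, against 549 and 931 at 0h. Every ip library was below both libraries of 0h, and the groups of 2, 6 and 20h did not overlap one another. The log2 fold change was -1.18 ± 0.67 at 2h (limma adjusted p = 0.0713, not called), -2.0 ± 0.67 at 6h (0.00811) and -3.48 ± 0.67 at 20h (0.000378). Among all genes in iMo at 20h, 13 had a lower fold than Ccr2. With title code in the model Ccr2 was called at 2h as well (-2.55, adjusted p = 0.00897), and likewise with array weights (0.0358). The model with title code joins the code of the 0h libraries to the others only through AM of 0h, where Ccr2 was at 1.95 to 4.85 TPM. It can therefore not tell LPS and title code apart for Ccr2 in iMo. Without iMo library A171227 of 0h the fall at 6h was -1.64 and no longer called (0.0842), nor was it with values rescaled without Rn45s and Lars2 (0.0592).

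The classical monocyte markers, which do not hold Ccr2, moved with it late but not early. They summed to 8178 and 11981 TPM in iMo at 2h, 5989 and 8464 at 6h and 2512 and 3280 at 20h, against 8227 and 12871 at 0h. Of the 10, 1 rose and none fell at 2h, 1 rose and 2 fell at 6h, and none rose and 7 fell at 20h. Over all 8937 genes, 752, 532 and 660 were called higher in iMo at these times, and 2145, 2068 and 1321 lower. Neutrophil markers rose in the same cells, to 252.1 and 565.2 TPM at 2h, 1728 and 3027 at 6h and 2893 and 2905 at 20h, against 113.4 and 188.0 at 0h. At these times 5, 8 and 9 of the 10 rose, 1 fell at 20h, and Ngp was listed at 0 in both iMo libraries of 0h. The part of either list in the fall of Ccr2 was not tested.

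In IM Ccr2 stood at 24.9 and 122 TPM at 2h, 21.8 and 65.9 at 6h and 52.0 and 60.1 at 20h, against 251 and 323 at 0h. All 6 ip libraries were below both libraries of 0h. The log2 fold change was -1.54 ± 0.67 at 2h (limma adjusted p = 0.00665), -2.34 ± 0.67 at 6h (0.00328) and -2.24 ± 0.67 at 20h (0.0224). Each of these calls was lost without a single library. Without N160623 the fold was -0.72 at 2h (adjusted p = 0.207) and -1.74 at 6h (0.0829), without the 0h library A171227 that at 2h was -1.37 (0.0511), and the call at 20h was lost without any 1 of its 4 libraries (0.089 to 0.169). Interstitial macrophage, endothelial and epithelial markers fell in the same comparisons, by the values given above, while 5 of the 10 neutrophil markers rose at each time. The classical monocyte markers summed to 5595 and 9599 TPM in IM at 2h, 3868 and 9326 at 6h and 3279 and 3700 at 20h, against 3236 and 6243 at 0h. Of these 10, 4, 2 and 1 rose and 1 fell at each time, beside the counts over all genes given above for IM. The part of these lists in the fall of Ccr2 in IM was not tested. LPS and title code cannot be told apart for this fall either, as the codes are joined only through AM of 0h.

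AM held 0.561 to 10.0 TPM of Ccr2 after ip LPS and 1.95 to 4.85 at 0h, with no call (limma adjusted p = 0.694 to 1). The highest value, 10.0, was in A161219 of 20h, the AM library with 4046 TPM of interstitial macrophage markers, and the next highest after LPS was 3.89. Without it, Ccr2 of AM at 20h had a log2 fold change of -0.37 in place of 0.81, and without all N160623 libraries it was called higher (2.02, adjusted p = 0.03).

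Change over the 4 times as a whole was called, by the moderated F test of limma, for 7 of 15 pairs of gene and cell type, against 32.9% of pairs over all genes (45.6% in iMo, 52.4% in IM and 0.806% in AM). In iMo these were Ccl2, Ccl7, Ccl12 and Ccr2, in IM Ccl8 and Ccr2, and in AM Ccl2. With title code in the model Ccl2 was not called in iMo (adjusted p = 0.126) or AM (0.336). Its call in AM was also lost without either of the 6h libraries A161219 and B161219 (0.0842 and 0.0717), and that of Ccr2 in IM without A171227 of 0h (0.068). Between ip times that follow each other (6h against 2h and 20h against 6h), none of 30 pairs was called by limma at the adjusted threshold, 3 had an unadjusted p under 0.05, and 4.02% of all pairs were called. The later course of each gene after 2h is therefore given as values.

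The ip response as a whole was compared between cell types with a moderated F test over the 3 times. It was called for 7 of 15 pairs, against 15.9% of pairs over all genes (26.5% for IM against AM, 17.3% for iMo against AM and 3.75% for iMo against IM). Ccl7 and Ccl12 responded differently in iMo than in IM (limma adjusted p = 0.000625 and 0.00142) and than in AM (0.000316 and 0.000269). At 0h Ccl7 was at 0 to 0.556 TPM in iMo and at 39.3 to 40.6 in IM. Ccl12 was listed at 0 in iMo at 0h and was at 46.4 to 55.9 TPM in IM. After LPS neither gene was called between iMo and IM at any time, so these 2 calls rest on the gap at 0h. Ccl8 responded differently in IM than in AM (limma adjusted p = 1.52e-05), and in iMo than in IM (0.000217). At 0h Ccl8 was at 0 to 1.118 TPM in AM and was listed at 0 in iMo, so a fall could not be seen in either. The calls of Ccl8 therefore restate the fall in IM. For Ccr2, iMo differed from AM (0.0117), while the difference between iMo and IM was not called (0.562). IM against AM lay near the threshold for Ccr2 (0.058), and was called in several alternative fits, that with title code among them (0.000584). The call of Ccr2 between iMo and AM was lost without AM library A161219 of 20h (0.0679) and without iMo library B161219 of 20h (0.0504). Ccl2 gave no call for IM against AM (0.265), iMo against AM (0.599) or iMo against IM (0.495). In other fits it was called for IM against AM with a pseudocount of 0.1 TPM (0.0321), with array weights (0.0457), without AM library N160623 of 6h (0.0351) and without all N160623 libraries (0.0111). For iMo against AM it was called with a pseudocount of 10 TPM (0.0156) and without all N160623 libraries (0.0203). When the 0h libraries were left aside and the course among 2, 6 and 20h was compared, none of 15 pairs was called by limma, 1 had an unadjusted p under 0.05, and 6.23% of all pairs were called.

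At each time the cell types were compared directly, and 34 of 60 pairs were called, against 22.0% of pairs over all genes. For IM against AM 26.0, 54.6, 35.9 and 18.5% of all genes were called at 0, 2, 6 and 20h, for iMo against AM 29.6, 39.9, 29.1 and 16.9%, and for iMo against IM 7.06, 2.45, 3.21 and 1.25%. At 0h, Ccl2 was higher in IM than in AM by a log2 fold of 6.00 ± 0.51 (limma adjusted p = 3.88e-09) and in iMo than in AM by 5.46 ± 0.51 (5.56e-09). Between iMo and IM it was not called (-0.55 ± 0.58, 0.798). Ccl2 and Ccr2 remained higher in IM and in iMo than in AM at every time, by log2 folds of 4.91 to 7.02 for Ccl2 and 3.10 to 7.40 for Ccr2. The difference of Ccr2 between iMo and AM at 20h was lost without AM library N160623 (1.92, adjusted p = 0.0672).

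Between iMo and IM, calls were made at 0h and not later. Ccl7 was lower in iMo than in IM at 0h (-5.18 ± 0.56, limma adjusted p = 1.63e-06), and Ccl8 and Ccl12, both listed at 0 in iMo, were lower too (9.58e-09 and 4.61e-06). Endothelial markers summed to 532.6 and 715.5 TPM in IM at 0h and to 7.792 and 51.43 in iMo. Fibroblast markers summed to 331.0 and 364.0 against 7.489 and 10.39, and neutrophil markers to 22510 and 11174 against 188.0 and 113.4. Sums of classical monocyte and alveolar macrophage markers were higher in iMo. The part of other cells in these calls was not tested. After LPS none of the 5 genes was called between iMo and IM at any time, by limma adjusted p of 0.105 to 1, and 5 of these 15 pairs had an unadjusted p under 0.05. Ccr2 at 2h (1.66, adjusted p = 0.105) was called higher in iMo than in IM with a pseudocount of 10 TPM (1.70, adjusted p = 0.0305), with values rescaled without Rn45s and Lars2 (1.60, 0.0488), with the replicate block (1.19, 0.0281) and without IM library A161219 of 2h (2.53, 0.0406). The F tests above are the tests of whether these gaps changed. Ccr2 was at 549 and 931 TPM in iMo and at 251 and 323 in IM at 0h, a log2 fold of 1.18 ± 0.67 that was not called (0.338). It was called with title code in the model (0.0254).

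By level, the order for Ccl2 at 0h was IM (67.6 ± 2.43 TPM), iMo (51.8 ± 13.3) and AM, with IM and iMo not differing by the test. After LPS the order by mean was iMo, IM, AM at 2 and 6h and IM, iMo, AM at 20h (230 ± 13.7, 160 ± 9.25 and 2.84 ± 3.00 TPM, SD, n = 2 each), and again only the step to AM passed the test. For Ccr2 the order was iMo, IM, AM at 0, 2 and 6h, and IM and iMo were level at 20h (56.0 ± 5.72 and 51.6 ± 12.8 TPM, SD, n = 2 each).

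Across the 12 group means of log2(TPM + 1), Ccl7 and Ccl12 were the most alike of the 5 genes (Pearson r = 0.972), followed by Ccl2 with Ccl7 (0.868) and with Ccl12 (0.84). Ccl2 correlated with Ccr2 at 0.787, both being lowest in AM, and Ccl8 correlated with the 4 others at 0.134 to 0.338. These are descriptions over groups that share cell types and libraries. The 5 genes most like each in all the table were also listed. For Ccl2 they were Tnfrsf14 (0.992), Lrrc25, Pou2f2, Ms4a4a and Arhgef10l (0.975). For Ccl7 they were Xpo6 (0.959), Cxcl16, Spic, Cd38 and Sdc4 (0.931), and for Ccl12 Xpo6 (0.96), Cd38, Mmp14, Cxcl16 and Cp (0.93). For Ccl8 they were Mucl1 (0.969), Ctla2b, Fcrls, Pla2g2d and Tspan8 (0.953). For Ccr2 they were Napsa (0.976), Clec12a, Ptpro, Ly86 and Clint1 (0.968).

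Other genes of the pathway were read against the genes tested as a whole. In iMo at 2h 752 of all 8937 were called higher and 2145 lower (32.4% in all). In IM at 2h 714 were called higher and 3642 lower (48.7%), so that falls were the more common call in both in the main fit. This depended on the scaling. Of the calls in iMo at 2h, 26% were higher in the main fit, 49.5% with quantile scaling and 51.4% with values rescaled without Rn45s and Lars2. In IM at 2h these shares were 16.4, 48.5 and 20.2%. Of 14 other CC chemokines, 8 passed the filter. In iMo at 2h 3 rose and 1 fell (median log2 fold change 0.77), and in IM at 2h 4 rose and 2 fell (2.06). Ccl3, Ccl4 and Ccl5, chemokines that attract monocytes and T cells, were the steepest in both. Ccl4 averaged 1650 TPM in iMo at 2h against 4.96 at 0h (8.53 ± 0.73, limma adjusted p = 3.61e-08), and Ccl3 averaged 1770 TPM in IM at 2h against 10.4 at 0h (8.04 ± 0.57, 7.54e-09). Ccl5 averaged 3660 TPM in iMo and 4640 in IM at 2h, against 48.5 and 96.9 at 0h. These means exceeded the 101 TPM of Ccl7 in iMo at 2h, with levels set per length. At 20h in iMo, Ccl4, Ccl3 and Ccl5 were still called higher than at 0h (3.79, 3.51 and 2.97). In AM at 6h Ccl5 was the one of the 8 that was called (4.43 ± 0.65, limma adjusted p = 0.000503), beside 1.30% of all genes.

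Of 21 other chemokine receptors, 8 passed the filter, and 3 rose and 2 fell in iMo at 2h (median log2 fold change 1.44), while 1 rose and 3 fell in IM (0.67). Of these 8, 5 were thus called in iMo and 4 in IM, the last a share near that of all genes (48.7%). Ccrl2, a receptor that binds chemerin without signalling, rose in iMo (3.94 ± 0.50) and IM (4.96 ± 0.50). Cx3cr1, the fractalkine receptor and a marker of nonclassical monocytes, fell at 2h (-2.76 ± 0.54 in iMo and -3.96 ± 0.54 in IM), and is also 1 of the interstitial macrophage markers. Cx3cr1 averaged 9.98 TPM in iMo at 2h and 65.0 at 0h. Cxcr4, which retains cells in bone marrow, fell in IM at 2h (-2.37 ± 0.64). In iMo at 20h Cxcr2, a neutrophil receptor, was called higher (2.43 ± 0.44) and Cx3cr1 lower (-1.86 ± 0.54). In AM at 6h none of the 8 was called by limma (1 had an unadjusted p under 0.05), and the largest change was that of Cxcr1 (-0.72, adjusted p = 0.384).

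**Figure D5:**
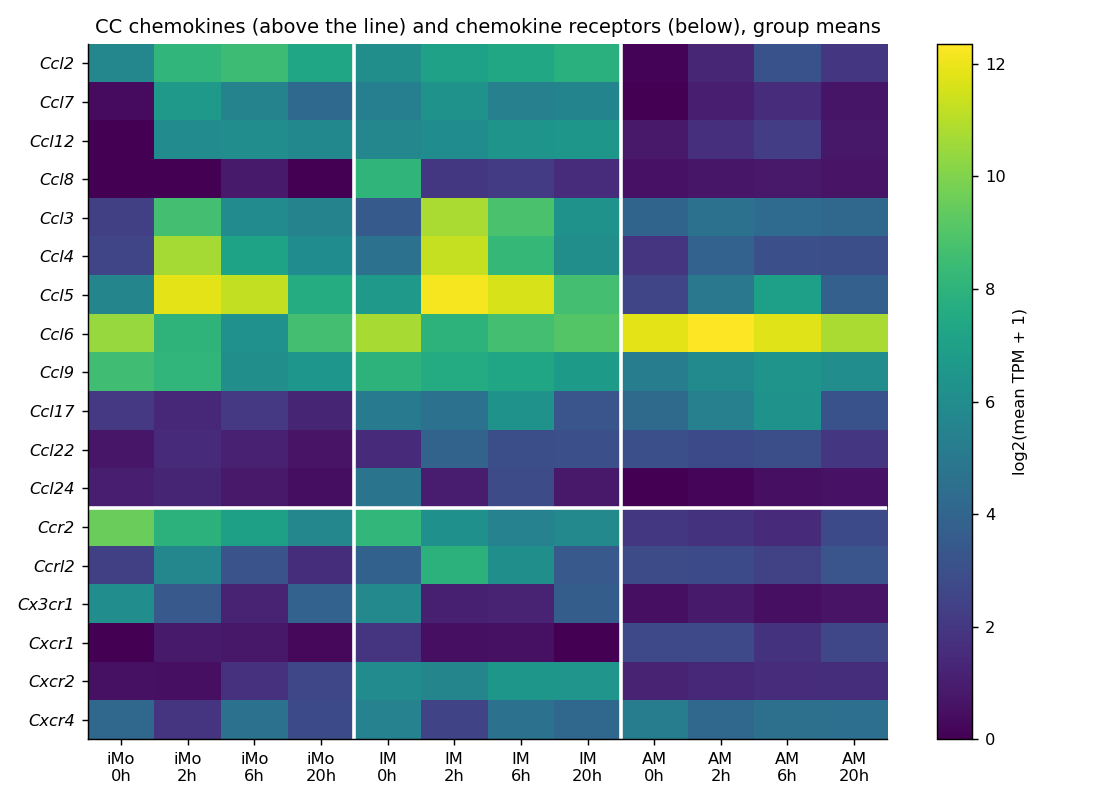
Group means as log2(TPM + 1) of the 4 ligands, the 8 other CC chemokines that passed the filter, Ccr2 and the 5 other receptors named in the text, in iMo, IM and AM at 0, 2, 6 and 20h after ip LPS. Ccl3, Ccl4 and Ccl5 are brightest at 2h in iMo and IM, Ccl6 is bright in AM at all times, and Ccr2 darkens over time in iMo.

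Of 17 genes of CCR2 signalling in the table (G proteins, arrestins, kinases), 2 rose and 6 fell in iMo at 2h, and 2 rose and 7 fell in IM, with medians of -0.11 and -0.01 relative to all genes. That is 8 of 17 called in iMo and 9 of 17 in IM, against 32.4 and 48.7% of all genes, among which falls also prevailed in the main fit. Jak2 rose in both (2.72 ± 0.54 in iMo and 3.39 ± 0.54 in IM), as did Pik3cd (1.56 and 1.91). Mapk3 fell in iMo (-1.74 ± 0.41) and Arrb1, an arrestin, fell in IM (-1.92 ± 0.39). At 20h none of the 17 was called by limma in either cell type, and 3 in each had an unadjusted p under 0.05. The largest at 20h in iMo was Gnb1 (1.39, adjusted p = 0.104).

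Of 11 genes of monocyte exit and adhesion, 3 fell and none rose in iMo at 2h (median 0.10), and 4 fell in IM (0.11). These shares are near those of all genes called lower, 2145 and 3642 of 8937. Cxcr4 fell in iMo (-2.02 ± 0.64), as did the selectin ligand Selplg (-1.38 ± 0.47) and Spn (-1.22 ± 0.41), and S1pr1, a receptor for exit into blood, fell in IM (-2.66 ± 0.57). At 20h in iMo, 3 of the 11 fell and 1 rose, beside 22.2% of all genes called.

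Of 17 genes between TLR4 and NF-kB, 4 rose and 1 fell in iMo at 2h (median 0.73), and 6 rose and 2 fell in IM (1.20). The 5 of 17 called in iMo and 8 of 17 in IM are shares near those of all genes, 32.4 and 48.7%. Cd14, the LPS co-receptor, led both (3.66 ± 0.48 in iMo and 4.26 ± 0.48 in IM). The NF-kB subunit genes Nfkb1 (2.89 and 2.82) and Nfkb2 (2.32 and 3.00) rose as well. None of the 17 was called by limma in AM at 6h (0 at an unadjusted p under 0.05), where the largest was Rel (-0.38, adjusted p = 0.602).

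Of 11 tested genes that restrain chemokine transcripts or the signals behind them, 8 rose in iMo and 10 in IM at 2h and none fell (medians 2.60 and 3.88). Tnfaip3, an inhibitor of NF-kB signalling, rose by 6.54 ± 0.45 in iMo and 6.69 ± 0.45 in IM, and Il1rn, the antagonist of the IL-1 receptor, by 7.20 ± 0.61 and 6.22 ± 0.61. Socs3 rose in iMo (4.73 ± 0.45), and Il10 averaged 17.7 TPM in IM at 2h and was listed at 0 at 0h. At 20h 3 rose and 1 fell in iMo and 4 rose in IM, where 22.2 and 12.4% of all genes were called. In AM at 6h Dusp1 (2.23 ± 0.34) and Socs3 (1.83 ± 0.35) were called, beside 1.30% of all genes. All these lists share the 0h libraries, and so their title code, with Ccl2, Ccl7, Ccl12, Ccl8 and Ccr2.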

How the data were processed

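The deposited values are TPM for 23594 rows. STAR, HOMER and the mm10 build are named in the submitters' processing notes, with no version or annotation. Per the labels' protocols, polyA RNA of sorted cells was amplified after Smart-seq2, with changes. Read depth is unknown, so precision comes from replicates alone. The last time is 20h, as in the labels (22h in the series text).

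The 27 libraries of 0h and ip were put on a log2(TPM + 1) scale, which understates changes of low genes. The 8937 genes that reached 5 TPM in 2 or more libraries entered 1 limma model (3.58.1, R 4.3.3; trend, 1 coefficient for each of 12 groups); p-values were adjusted by Benjamini-Hochberg over genes for every contrast, and calls made under 0.05. The model was tested on simulated data. Contrasts against 0h share their 0h libraries. Genes and lists were chosen with earlier results of these data known. From each list, up to 3 called genes of largest change are named, or the largest where none was called. Some genes that this rule would name are not reported here. Likeness used genes with at least 10 TPM in a group mean, passing over gene models. Alternatives were other pseudocounts (0.1 and 10 TPM), no filter or 10 TPM, quantile scaling, 2 rescalings, title code as covariate or left out, a replicate block, array weights, no trend and leaving out each library. Promoter windows came from RefSeq (GRCm38.p6), positions from GENCODE M21. The number of promoters at hand was 3 of 5.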

Additional observations from a re-analysis of the deposited data

Results flagged for a closer look

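In AM at 0h, 2 genes had a library that stood apart from the 3 others, in both cases N160623. Ccl2 was at 0.312 TPM there and at 0 in the 3 others. Ccl12 was at 0.235 TPM there and at 0.938 to 1.065 in the others. All these values are low. Chance alone sets apart about 1 in 20 groups of normally distributed values by this measure. That rate does not hold for Ccl2, since with the 3 others at 0 any value above 0 is set apart.

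The ip response differed between cell types by the moderated F test of limma for 7 pairs of gene and cell types, with Benjamini-Hochberg adjustment over all genes. For Ccl7 the adjusted p was 0.000316 between iMo and AM and 0.000625 between iMo and IM. For Ccl12 it was 0.000269 between iMo and AM and 0.00142 between iMo and IM. Both genes were called lower in iMo than in IM at 0h and were not called between them after LPS. For Ccl8 it was 1.52e-05 between IM and AM and 0.000217 between iMo and IM, with AM and iMo too near the floor at 0h to show a fall. For Ccr2 it was 0.0117 between iMo and AM. Ccl7 and Ccl12 were higher than at 0h in 6 of 6 iMo libraries of ip, Ccl8 was lower in 6 of 6 IM libraries and Ccr2 was lower in 6 of 6 iMo libraries.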

How the results depend on the processing

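Of 45 pairs of gene and ip time, 18 were called against 0h, and 14 to 27 under the 12 alternatives (15 to 21 when 1 library was left out); between cell types it was 34 of 60, and 34 to 36 (33 to 36). Between ip times none was called, but 1 with quantile scaling, 1 with the title code as covariate, 1 with the replicate block and 2 without the N160623 libraries (0 when any 1 library was left out). Change over time had 7 calls, and 11 without the N160623 libraries (6 to 8 when 1 library was left out), and differences in response had 7, and 11 without them (6 to 9). For the course among ip times, 0 calls became 1 with quantile scaling, 1 with Rn45s and Lars2 left out, 1 with the title code, 1 with the block and 4 without the N160623 libraries (0 to 1 with 1 library left out). Endings of titles shared between groups were not used to pair the libraries in the main fit. Deviations from group means correlated above 0.1 in 28 of 62 pairs of the same ending (median 0.084). This was so in 19 of 55 pairs of the same code with another ending (0.015) and in 34 of 215 pairs of other codes (-0.019). Whether the libraries are paired cannot be told from these values. With the replicate block the count against 0h was 14, Ccl2 turned to -0.08 in iMo and -0.19 in IM at 20h, and Ccl7 in iMo at 20h was not called (3.22, adjusted p = 0.161). With 1 library left out, Ccr2 of AM at 20h ran from -0.37 to 1.98. With a pseudocount of 0.1 TPM the difference in response of Ccl8 between iMo and IM was not called (adjusted p = 0.102). Of 52 pairs with a fold called in no fit, 33 changed sign somewhere. The cause was not tested. Low TPM, no read depth and 2 libraries a group limit what can be seen.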
